A study of Mus musculus with 12 samples.

Results

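The genes of the major histocompatibility complex (MHC) and of antigen presentation were described in the frontal cortex of male C57BL/6 mice with and without the RNA editing enzyme ADAR2. The members were all genes of the gene table with a symbol beginning with H2-, and B2m, Tap1, Tap2, Tapbp, Cd74, Psmb8, Psmb9, Psmb10, Nlrc5, Ciita and Erap1. Of 31 such genes, 29 were among the 15191 listed genes, and Nlrc5 and Ciita were not. The 29 comprised 2 classical class I genes, 3 nonclassical Q, 4 T and 3 M genes, 8 genes of class II, 8 genes of class I peptide processing, and H2-Ke2. H2-Ke2 carries the prefix only because it lies in the complex: it encodes the prefoldin subunit Pfdn6 and no MHC chain. The libraries numbered 6 from Adar2-/- Gria2R/R mice, against 6 from litter mates that were Adar2+/+ Gria2R/R. The Gria2R allele was thus common to all mice, and its genomic sequence already encodes the edited arginine of this AMPA receptor subunit. The labels give neither age nor haplotype of the mice. Total RNA was sequenced, so fewer cells of a type and less RNA per cell cannot be told apart.

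MHC class I molecules consist of a heavy chain and beta-2-microglobulin, and display peptides that the proteasome cuts, the TAP transporter carries into the endoplasmic reticulum, and tapasin and Erap1 load and trim. Class II molecules consist of an alpha and a beta chain, are guided by the invariant chain Cd74, and exchange its remnant for a peptide with the help of DM. In brain, class I genes are transcribed in neurons as well as glia and vessels, and class II mainly in microglia, border macrophages and other professional presenting cells. The b haplotype of C57BL/6 mice has no H2-L gene, and its H2-Ea gene carries a deletion at the promoter, so that no I-E molecule is made. Heavy chain genes arose by duplication and resemble each other, which bears on how short reads are assigned.

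Values per library are not part of the tables used, so depth and the spread between libraries are unknown and no SD can be given. In the gene table the conditions are called A and B without a genotype, so gene differences are stated as A over B, beside the mean count over all libraries. Adarb1, the targeted gene, had a mean normalized count of 4181 in the authors' deposited table, with a log2 difference of -2.21 (adjusted p = 3.06e-126). The neuronal markers Snap25 and Syt1 and the astrocyte marker Slc1a3 had mean counts of 81736, 42312 and 21560 in the authors' deposited table, above that of every member. All 12 microglia markers looked for were listed. Of the T cell, natural killer cell and leukocyte markers looked for, 1 of 7 (Ptprc) was listed, and of the B cell and dendritic cell markers 2 of 7 (Flt3 and Xcr1), where the lowest listed mean was 15.0.

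No member passed. The authors' deposited table gave 0 of 29 members an adjusted p under 0.05, where 3 of all listed genes (0.0197%) were, and the adjusted p of every member was 1. By the unadjusted p, 4 members (13.8%) were under 0.05 in the authors' deposited table, against 1.86% of all genes. H2-T10 and H2-T24 were higher in condition A, where 0.843% of all genes were called in that direction. H2-T22 and H2-M5 were lower in condition A, where 1.02% of all genes were. All 4 are nonclassical class I genes. In 12 members the 2 conditions differed by 1.2-fold or more, which held for 8.4% of all genes. They were 1 of the 2 classical heavy chain genes (H2-K1), 6 of the 10 nonclassical genes and 5 of the 8 class II genes. Low counts scatter more widely: of the 1399 listed genes with a mean count between 20 and 50, 467 differed by at least that much. Of these 1399 genes, 3.86% had an unadjusted p under 0.05. Not all of the 12 members had low counts: H2-K1, H2-T22, Cd74, H2-M3, H2-T24 and H2-Eb1 had mean counts above 100. The median log2 difference of the 29 was 0.00, with 15 above and 14 below 0, against a median of 0.01 over all genes, of which 52.9% were above 0.

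**Figure D1:**
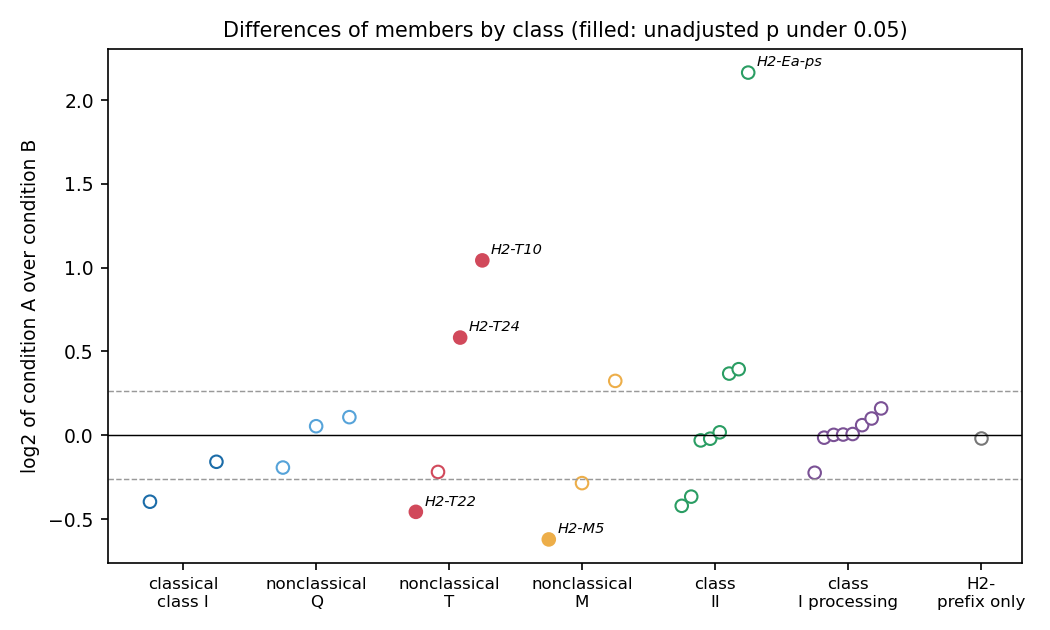
The log2 ratio of condition A over condition B is plotted for each of the 29 listed members, by class. Filled points have an unadjusted p under 0.05, and dashed lines mark 1.2-fold. H2-Ea-ps stands at 2.16 and H2-T10 at 1.04, while the 8 genes of class I processing lie between -0.22 and 0.16.

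The classical heavy chain genes were read first, since their products present peptides to cytotoxic T cells. H2-K1 had a mean normalized count of 502 in the authors' deposited table. H2-D1 had a mean count of 879 in the authors' deposited table. Both were lower in A, with log2 differences of -0.40 for H2-K1 (p = 0.113) and -0.16 for H2-D1 (p = 0.150) in the authors' deposited table, and neither passed. Per kilobase of transcript, with lengths from another annotation than the authors used, the mean count over both conditions was 310.1 for H2-K1 and 418 for H2-D1. B2m, the light chain they share, stood at 2476 on the same per-kilobase scale.

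The upstream sequences of the classical pair are shown because these are the stretches through which interferon and the MHC enhanceosome act. Each window runs from 250 bases before to 50 bases after the RefSeq start on GRCm38.p6 and is given 5′ to 3′ on the gene's strand. That of H2-K1 lies at chr17:34000298-34000597 on the minus strand, that of H2-D1 at chr17:35262844-35263143 on the plus strand, and that of the nonclassical H2-T22 at chr17:36042693-36042992 on the minus strand. Capitals mark 4 motifs, searched on both strands: GGGATTCCC, the core of the NF-kB site of enhancer A (GGGAATCCC on the other strand), TTTCACTT, an interferon element (AAGTGAAA on the other strand), TGACG, the core of the X2 box, and ATTGG, an inverted CCAAT box. No marked motif overlaps another in these windows.
H2-K1: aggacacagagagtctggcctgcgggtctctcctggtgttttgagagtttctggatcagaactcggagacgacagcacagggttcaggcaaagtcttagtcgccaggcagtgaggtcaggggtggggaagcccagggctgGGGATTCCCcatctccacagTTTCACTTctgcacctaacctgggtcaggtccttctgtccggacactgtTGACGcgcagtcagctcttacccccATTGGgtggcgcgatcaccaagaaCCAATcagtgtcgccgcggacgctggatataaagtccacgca
H2-D1: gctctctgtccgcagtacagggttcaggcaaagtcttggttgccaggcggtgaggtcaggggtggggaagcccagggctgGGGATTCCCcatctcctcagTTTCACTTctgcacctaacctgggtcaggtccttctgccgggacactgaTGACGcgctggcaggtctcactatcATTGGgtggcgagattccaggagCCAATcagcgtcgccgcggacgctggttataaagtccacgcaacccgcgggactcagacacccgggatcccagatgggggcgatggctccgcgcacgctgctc
H2-T22: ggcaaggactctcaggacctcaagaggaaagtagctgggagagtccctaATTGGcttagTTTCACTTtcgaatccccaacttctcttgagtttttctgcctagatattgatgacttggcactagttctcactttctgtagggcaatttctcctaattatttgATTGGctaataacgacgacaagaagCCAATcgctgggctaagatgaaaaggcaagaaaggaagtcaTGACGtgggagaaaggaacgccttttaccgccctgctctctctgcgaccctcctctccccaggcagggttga

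The H2-K1 and H2-D1 windows were alike over 239 aligned bases, of which 88.3% were identical. Each held the NF-kB core, the interferon element, the X2 core and a pair of CCAAT boxes in the same order. The H2-T22 window held the interferon element, 1 X2 core and 3 CCAAT boxes, and the NF-kB core was not in it. RefSeq windows were found for 22 of the 29 members. The NF-kB core was in 3 of these 22 (H2-K1, H2-D1 and H2-Q6), against 0.414% of all genes with a window. The interferon element was in 7 of the 22 (H2-K1, H2-D1, H2-gs10, H2-Q6, H2-M3, H2-T22 and Erap1), against 1.91% of all genes. The X2 core was in 10 of the 22, against 6228 of the 27025 genes with a window, and the CCAAT box in 17, against 41.1% of these genes. A match gives the letters of the window only. Of the 7 members with the interferon element, the authors' deposited table put 5 lower in A, with log2 differences of -0.46 for H2-T22, -0.40 for H2-K1, -0.29 for H2-M3, -0.19 for H2-gs10 and -0.16 for H2-D1. By the authors' deposited table H2-Q6 at 0.05 and Erap1 at 0.01 were near 0. Of all 15191 listed genes, 7160 were lower in A. Of the 12 listed class I heavy chain genes, with or without the element, 7 were lower in A. H2-T23, whose window did not hold the element, was at -0.22 in the authors' deposited table. Among the 5 members with the element that were lower in A, only H2-T22 had an unadjusted p under 0.05. Whether the motif goes with a direction was not tested.

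Genes of the Q region were close between conditions. H2-gs10 is a synonym of H2-Q4 in RefSeq. It had a mean count of 393 in the authors' deposited table (log2 difference -0.19, p = 0.162). H2-Q2 had a mean count of 57.6 and a log2 difference of 0.11 (p = 0.717), and H2-Q6 a difference of 0.05 (p = 0.737), in the authors' deposited table. None of the 3 reached 1.2-fold. Per kilobase, H2-gs10 had 219 over both conditions, against 45.7 for H2-Q2. The listed exon bins of H2-gs10 were uneven, with a mean count of 341 in E013 and 21.2 in E005. Its value per kilobase may therefore not describe the whole transcript.

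The T region held 3 of the 4 members with a small unadjusted p, and they did not go the same way. H2-T22 and H2-T10 belong to a pair of genes whose products bind no peptide and are ligands of some gamma-delta T cells. H2-T22 had a mean count of 424 in the authors' deposited table (log2 difference -0.46, p = 0.00437). H2-T10 had a mean count of 37.2 in the authors' deposited table (log2 difference 1.04, p = 0.00419). Of all 15191 listed genes, 7 reached 1 on the log2 scale of A over B, 2 of them members. RefSeq lists H2-T10 as a transcribed pseudogene, whereas GENCODE gives it a coding sequence. H2-T24 had a mean count of 102 in the authors' deposited table (log2 difference 0.58, p = 0.00972). H2-T23, which encodes Qa-1, a ligand of the CD94/NKG2A receptor of natural killer cells, had a mean count of 468 in the authors' deposited table (log2 difference -0.22, p = 0.133). For all 4 the authors' deposited table gave an adjusted p of 1.

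H2-T10 and H2-T22 are near copies, so their reads can be hard to tell apart. Their coding sequences in GENCODE M21 (GRCm38), 1137 bases each, were identical at 96.9% of 1134 aligned bases. The first stretch of 60 bases within an exon that differs at 3 or more places is shown for both, 5′ to 3′ on the minus strand, with the differing bases in capitals. It lies at chr17:36120231-36120290 for H2-T10 and at chr17:36041495-36041554 for H2-T22.
H2-T10: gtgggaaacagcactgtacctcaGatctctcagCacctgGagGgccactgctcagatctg
H2-T22: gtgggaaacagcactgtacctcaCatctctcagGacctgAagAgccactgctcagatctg

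The stretch differs at 4 bases, and a read that lies wholly within it can be placed only through these. Pooled over all annotated transcripts, 31.7% of the 50-base words of H2-T10 also stood in H2-T22, and 7.06% of its 100-base words did. These transcripts hold 3546 distinct 50-base words, although the longest coding transcript of H2-T10 has 1481 bases. The share within the coding sequence alone was not computed. Neither the read length nor the treatment of reads matching several places was stated in the labels or headers. The part of shared reads in the opposite differences of H2-T10 and H2-T22 was not tested.

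Of the M region, H2-M3 encodes a heavy chain that presents N-formylated peptides of bacteria and mitochondria. It had a mean count of 111 in the authors' deposited table (log2 difference -0.29, p = 0.0624). H2-M5 had a mean count of 28.8 in the authors' deposited table (log2 difference -0.62, p = 0.0243, adjusted p = 1), the lowest log2 difference of the 29 members. The pseudogene H2-M6-ps had a mean count of 16.0 in the authors' deposited table (log2 difference 0.32, p = 0.541). These genes share little with others: under 1% of the 50-base words of each stood in another gene.

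**Figure D2:**
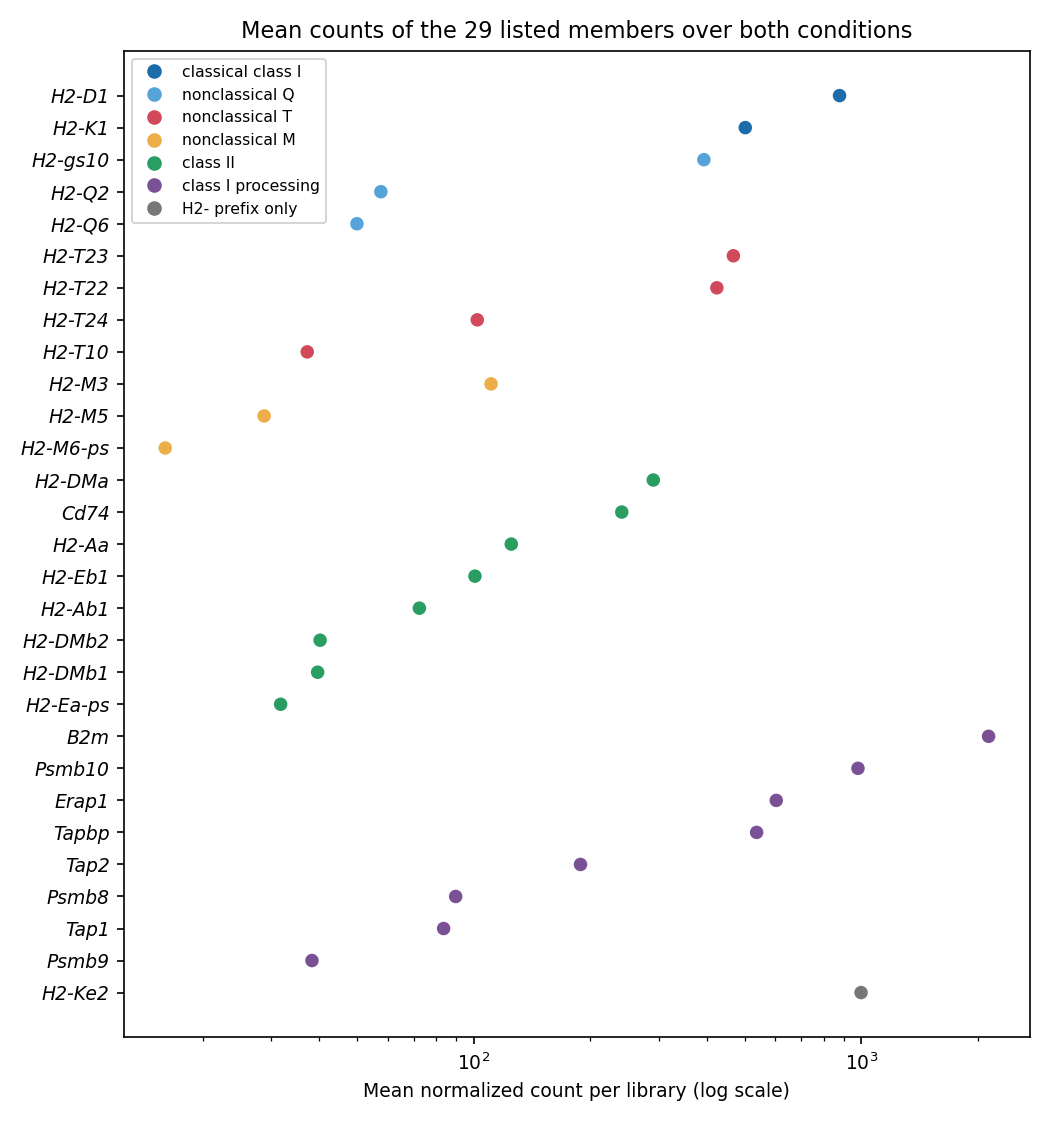
Mean normalized counts of the 29 listed members over both conditions are plotted on a log axis, ordered and coloured by class. They run from 16.0 for H2-M6-ps to 2130 for B2m.

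Class II held the member with the largest difference. H2-Ea-ps, listed as the pseudogene of the I-E alpha chain, had a mean count of 31.8 in the authors' deposited table. It was 4.48-fold higher in A, a log2 difference of 2.16, the highest among all 15191 listed genes on this scale. It did not pass: the authors' deposited table gave p = 0.121 and an adjusted p of 1. Of the listed genes with a mean count between 20 and 50, 3 had a log2 difference of 1 or more and 9 had one of -1 or less. How many libraries carried H2-Ea-ps reads is not shown by the table, and whether the conditions differed in haplotype was not tested. None of its 50-base words stood in another gene. H2-Eb1, which encodes the beta chain that pairs with I-E alpha, had a mean count of 101 in the authors' deposited table (log2 difference -0.42, p = 0.387).

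The class II genes did not all go the way of H2-Ea-ps: of the 8, 4 were higher and 4 lower in A. H2-Aa and H2-Ab1 encode the I-A chains, the class II molecule that b haplotype mice make. H2-Aa had a mean count of 125 and H2-Ab1 of 72.4 in the authors' deposited table. Near 0 were both log2 differences, -0.03 for H2-Aa (p = 0.934) and -0.02 for H2-Ab1 (p = 0.854) by the authors' deposited table. H2-DMa had a mean count of 291 in the authors' deposited table (log2 difference 0.02, p = 0.964). Cd74 had a mean count of 241 in the authors' deposited table (log2 difference 0.37, p = 0.731). The DM beta genes went apart: H2-DMb1, with a mean count of 39.6, was at -0.37 (p = 0.191), and H2-DMb2, with 40.2, at 0.39 (p = 0.509) in the authors' deposited table. They are near copies, and 22.7% of the 50-base words of H2-DMb1 stood in H2-DMb2. The part of shared reads in their opposite signs was not tested.

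Markers of the cells that make class II are given beside these values. Of 12 microglia markers 10 were higher in condition A, with a median log2 difference of 0.10, where 52.9% of all listed genes were higher. Of 8 border macrophage markers 7 were higher in A, with a median of 0.16. In the authors' deposited table none of these markers reached an unadjusted p under 0.05. The median log2 difference was 0.09 for 5 neuron markers, 0.06 for 4 astrocyte markers, -0.05 for 4 oligodendrocyte markers and 0.04 for 6 endothelium markers. The part of cell numbers in the class II values was not tested.

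The genes of class I peptide processing were nearly level. B2m had a mean count of 2130 in the authors' deposited table (log2 difference 0.10, p = 0.331). The transporter genes Tap1 and Tap2 had log2 differences of -0.01 (p = 0.860) and -0.22 (p = 0.0908) in the authors' deposited table. Tap2 had a mean count of 189 in the authors' deposited table. Tapbp, the gene of tapasin, was at 0.06 (p = 0.506), and Erap1, the peptide trimming enzyme, at 0.01 (p = 0.871) in the authors' deposited table. Psmb8, Psmb9 and Psmb10 encode the subunits that turn a standard proteasome into an immunoproteasome, and they were at 0.16, 0.00 and 0.00 in the authors' deposited table (p = 0.516, 0.837 and 0.861). None of the 8 genes reached 1.2-fold. H2-Ke2 was at -0.02 (p = 0.921) in the authors' deposited table.

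Other genes of the pathway were read from lists chosen for their function, and their counts stand beside the 52.9% of all listed genes that were higher in A and the 1.86% with an unadjusted p under 0.05. Of 18 listed regulators of MHC transcription and interferon gamma signalling 8 were higher and 10 lower in condition A, with a median of -0.01, and an unadjusted p under 0.05 was given to 0 of them by the authors' deposited table. The lowest was Irf9 at -0.10 in the authors' deposited table. Of 15 genes of peptide loading and the standard proteasome 9 were higher, with a median of 0.02 and a range from -0.08 for Psme1 to 0.06 for Psmb6. Of 7 genes of class II peptide processing 6 were higher, with a median of 0.06, from -0.04 for Cst3 to 0.18 for Ifi30. Among them Ctss, the cathepsin that degrades the invariant chain, was at 0.14 (p = 0.0489, adjusted p = 1) in the authors' deposited table. All 6 listed MHC-like chains and class I receptors were higher in A, from 0.01 for Procr to 0.25 for Lag3, and the authors' deposited table gave none of them an unadjusted p under 0.05. Of 20 interferon-induced genes outside the complex 17 were higher in A, with a median of 0.19 and the lowest value, -0.06, for Irgm1, and 3 of the 20 had an unadjusted p under 0.05 by the authors' deposited table. Ifit3 was at 0.39 (p = 2.71e-04), Ifit1 at 0.47 (p = 0.0266) and Oas1a at 0.78 (p = 0.0296) in the authors' deposited table. Adjusted, these p were 0.457, 1 and 1. H2-K1 and H2-D1, which interferon induces too, were at -0.40 and -0.16. The 8 members of class I processing ranged from -0.22 to 0.16, with a median of 0.01. The difference between these members and the interferon-induced genes was not tested. That interferon-induced genes lean towards A was known before this list was drawn up, and the count is no independent evidence of it.

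Neighbours of the MHC genes were read along chromosome 17, in the order of the RefSeq annotation from Kifc1 to H2-M2. Of 109 listed genes in this interval 25 were members and 84 were not. The authors' deposited table gave an unadjusted p under 0.05 for 4 of the 25 members and for 1 of the 84 others, Lst1 (log2 difference 0.38, p = 0.0267, adjusted p = 1). The conditions differed by 1.2-fold or more in 11 of the members and 13 of the others. Over all listed genes, 1.86% had an unadjusted p under 0.05 and 8.4% differed by 1.2-fold or more. Members and others were not matched for mean count. Of the 1399 listed genes with a mean count between 20 and 50, 467 differed by 1.2-fold or more. Differences of the others ranged from -0.41 for BC051142, the neighbour of H2-Ea-ps, to 0.85 for Ly6g6e (p = 0.554) in the authors' deposited table. H2-T24, H2-T23, H2-T22 and H2-T10 stand next to each other in the list but for Gm11127, at 0.39 (p = 0.117) in the authors' deposited table. Rps18, which lies among the first genes of the interval, was at -0.32 (p = 0.0519), and its copy Rps18-ps3 at 1.57 (p = 0.00218, adjusted p = 1) in the authors' deposited table.

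**Figure D3:**
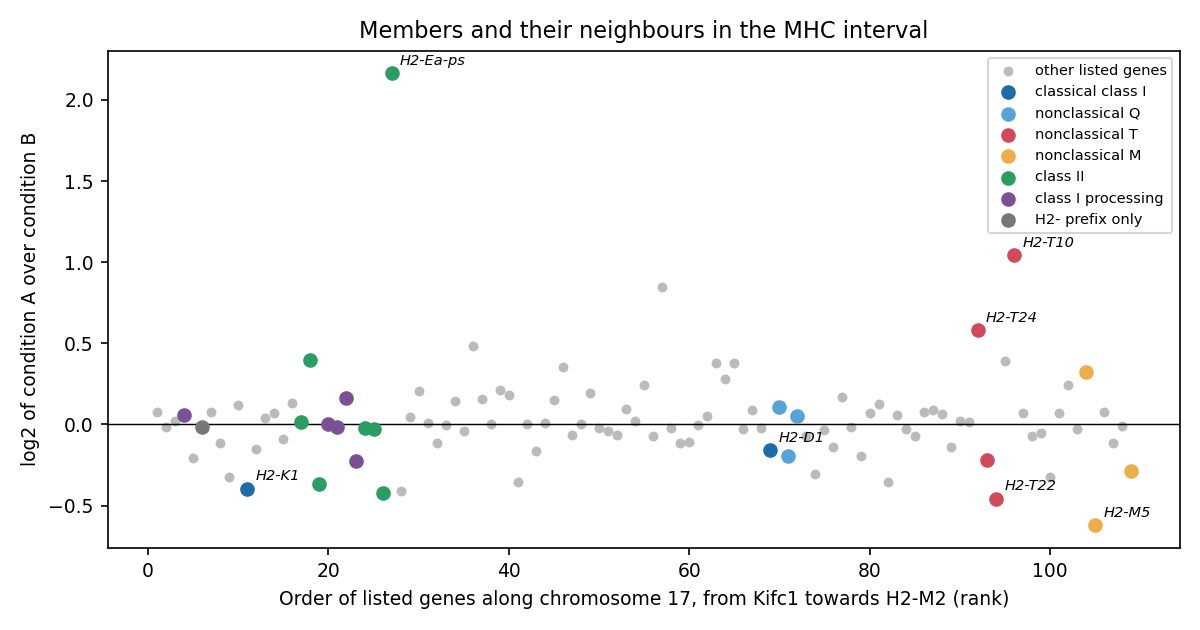
The log2 ratio of condition A over condition B is plotted for the 109 listed genes of the MHC interval in their order along chromosome 17, with the 25 members coloured by class and the 84 other genes in grey. H2-Ea-ps at 2.16 and H2-T10 at 1.04 stand highest, and the highest of the other genes is Ly6g6e at 0.85.

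Shared sequence was measured for every member in the GENCODE M21 transcripts, pooled over all transcripts of the gene. It is the share of the member's 50-base words that also occur in a transcript of another gene. It was highest for H2-T22 (34.5%), H2-T10 (32.9%) and H2-Q6 (32.0%), and then H2-DMb2 (24.8%), H2-DMb1 (22.7%) and H2-gs10 (21.8%). It was 9.63% for H2-K1 and 12.8% for H2-D1, and 3.17% for H2-T24. For B2m, Cd74, H2-Ab1, H2-Eb1, H2-Ea-ps, H2-DMa, Erap1, Psmb9 and Psmb10 it was 0. Between H2-K1 and H2-D1, whose coding sequences were 91.9% identical, 4.08% of the 50-base words of H2-K1 were shared and none of its 100-base words. Of the 4 members with an unadjusted p under 0.05, H2-T22 and H2-T10 were at the top of this scale and H2-T24 and H2-M5 (0.886%) near its foot.

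**Figure D4:**
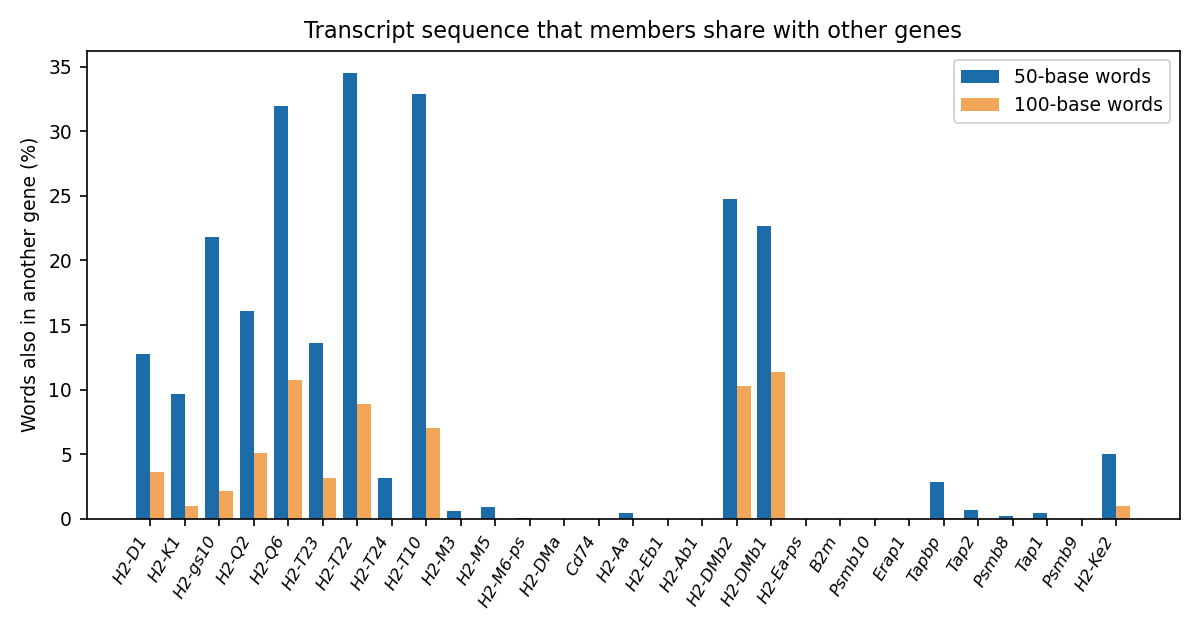
Bars give the percentage of each member's distinct 50-base and 100-base transcript words that also occur in a transcript of another gene. The 50-base share reaches 34.5% for H2-T22 and is 0 for genes such as B2m and Cd74.

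Exon bins name their genotypes, so these differences are given as Adar2-/- over Adar2+/+. In the form DEXSeq writes, such values compare a bin with the rest of its gene and do not give the gene's level. Of the members, 21 had 118 bins in the authors' deposited table, and no bin of H2-T10, H2-Ea-ps, H2-M5, H2-M6-ps, H2-Q2, H2-DMb1, Tap1 or Psmb9 was matched. By the authors' deposited table none of the 118 had an adjusted p under 0.05, where 0.00738% of all tested bins did. The authors' deposited table gave an unadjusted p under 0.05 for 5 of the 118 (4.24%), against 1.67% of all bins. A difference of 1.2-fold or more was found for 13 of the 118, against 5.2% of all bins. Member bins and all bins were not matched for mean count or dispersion. The deposited dispersion had a median of 0.0259 in member bins and 0.0161 in all tested bins.

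The 5 bins all lay in class I heavy chain genes. In H2-D1, bin E003 was lower in Adar2-/- (log2 difference -0.35, p = 0.00311) and E008 higher (0.26, p = 0.0350) in the authors' deposited table. Its neighbour E002 stood at -0.33 (p = 0.0922) and the remaining H2-D1 bins between -0.03 and 0.26 in the authors' deposited table. In H2-K1, bin E010 was lower in Adar2-/- (-0.40, p = 0.00503) and E004 higher (0.37, p = 0.0174) in the authors' deposited table, and the adjacent E011 stood at -0.29 (p = 0.166). In H2-T22, bin E010 was at -0.41 (p = 0.0248) in the authors' deposited table. For each of these 5 bins the authors' deposited table gave an adjusted p of 1. Both classical genes had bins on either side of 0, as did B2m, Cd74 and Erap1. A bin is compared with the rest of its gene, so this pattern is no result about the classical genes. Which exons the named bins are was not resolved here. The 2 bins of H2-gs10 were at 0.58 (p = 0.0522) and 0.20 (p = 0.113) in the authors' deposited table.

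Bins of B2m, Cd74 and Erap1 lay nearer 0. The 4 bins of B2m ranged from -0.07 to 0.12, the 10 of Cd74 from -0.16 to 0.24, and the 19 of Erap1 from -0.16 to 0.19 in the authors' deposited table. Their lowest p was 0.170 for B2m, 0.238 for Cd74 and 0.325 for Erap1. Bin E004 of H2-Aa was at -0.44 (p = 0.0705) in the authors' deposited table. The 3 bins of H2-M3 were each between 0.13 and 0.19, and the 3 of Psmb8 between 0.10 and 0.16. Of the 143 listed editing sites, 0 lie in a member.

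**Figure D5:**
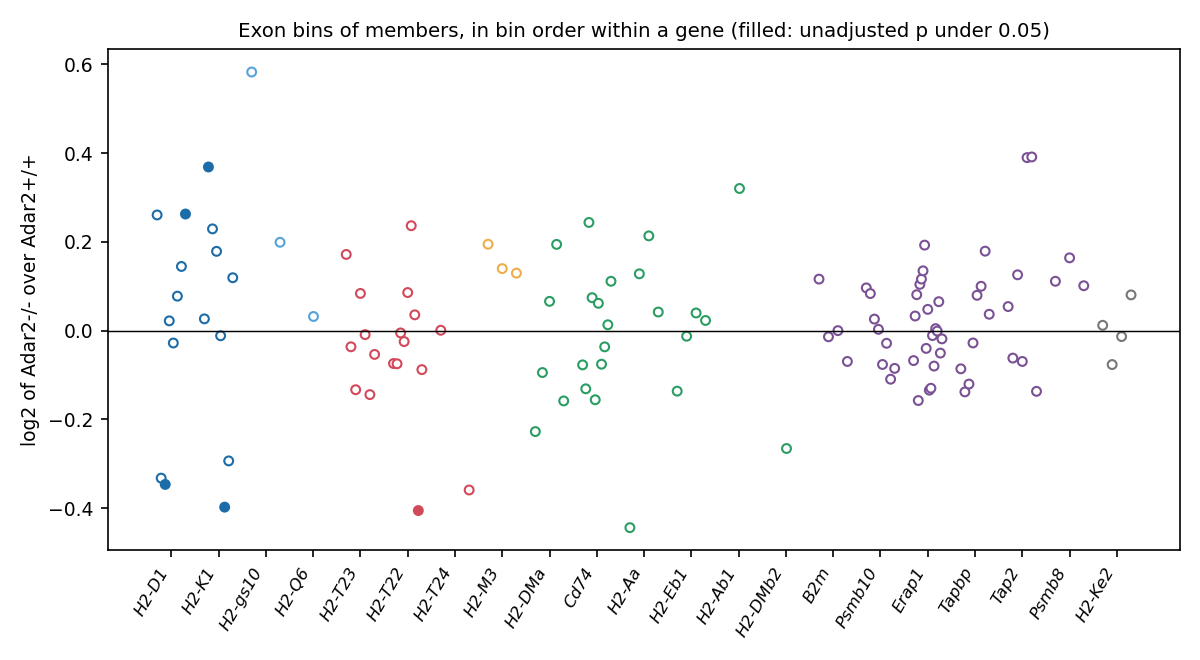
The log2 ratio of Adar2-/- over Adar2+/+ is plotted for the 118 exon bins of 21 members, in bin order within each gene, with bins of an unadjusted p under 0.05 filled. The 5 filled points, in H2-D1, H2-K1 and H2-T22, lie between -0.41 and 0.37, while the B2m bins stay between -0.07 and 0.12.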

How the data were processed

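Libraries were made from total RNA with a stranded kit after removal of ribosomal RNA, per the labels' protocols. TopHat2 2.0.6, Bowtie2 2.02.0, HTSeq, DESeq, SAMtools and the build mm9 are named, without roles, in the submitters' processing notes. The authors deposited mean normalized counts over all libraries (a signal in DESeq's form), the fold of B over A, its log2 value, and p-values, per the file headers. For exon bins they deposited a mean count, the log2 of control over Adar2, p-values and a dispersion score, of which only medians are given. For editing sites they deposited the percent of edited reads, and only the gene was read.

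Gene differences were given the opposite sign, as A over B, and bin differences as knockout over control. Means per condition, headed without a genotype, were not used. The deposited p-values were used as they stand, at an adjusted p under 0.05, since a count model needs values per library. These were adjusted over more tests than are listed. Members and lists were chosen with earlier results of these data known. Values are given for members with a mean count of at least 100 or an unadjusted p under 0.05, and for the extremes of each class; values of further members are given to complete their class. All members were named. The value of 1 gene of the other lists is not reported here. Bins are named where p was under 0.01; further bins, and the order along chromosome 17, were chosen after their values were seen. H2-gs10, H2-Ke2 and H2-Ea-ps were matched to RefSeq by synonym, and all 29 to an Ensembl ID. Shared words were counted on the transcript strand. Python 3.11.15 and pandas 2.3.3 were used, and the adjustment was tested on simulated data.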

Additional observations from a re-analysis of the deposited data

How the results depend on the processing

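No member and no exon bin passed under the alternatives tried for those counts: an adjusted p under 0.1, adjustment over the listed genes or bins alone, a mean count of at least 100 for genes or 50 for bins, and a Simes p per gene. With a mean count of at least 100, the members with an unadjusted p under 0.05 numbered 2 (H2-T22 and H2-T24) in place of 4, since H2-T10 and H2-M5 have fewer counts. With p under 0.01 they numbered 3. The median log2 difference of the members was -0.031 with a mean count of at least 100 and -0.026 over H2- symbols alone, in place of 0.0024. Of bins with an unadjusted p under 0.05, 4 had a mean count of at least 50, in place of 5. No paired analysis was possible because each value covers all libraries of a condition. Leaving out a library was not possible for the same reason, so whether 1 library carries a value such as that of H2-Ea-ps was not tested. The precision of each value cannot be given without the spread between libraries.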
